A study of Mus musculus with 30 samples.

Results

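The glutathione S-transferases are described here through 10 genes measured in the hippocampus of male BALB/c mice: Gsta4, Gstm1, Gstm5, Gstp1, Gstt1, Gstk1, Gsto1, Gstz1, Mgst1 and Mgst3. They were taken as the rows of the deposited table whose Ensembl identifiers carry these symbols in the annotation of the same genome build, and all 10 were found among its 21412 genes. The mice belonged to a factorial feeding trial with methylmercury (MeHg) at 3 levels, each with or without added selenium, and 5 libraries were made per group. Ctr mice received neither MeHg nor added selenium, LD mice a low MeHg dose of 0.28 mg Hg per kg feed, and HD mice a high dose of 5 mg Hg per kg feed. Se_Ctr mice received added selenium alone, Se_LD mice added selenium with the low mercury dose, and Se_HD mice added selenium with the high mercury dose. The MeHg was bound to cysteine and fed for 11 weeks to mice that had arrived at an age of 2 to 3 weeks. The selenium was given as selenium-methionine, and its dose is not given in the sources used here. The doses in mg are stated for the feeds without added selenium, and the selenium groups are known only by their labels. Below, "without selenium" means without added selenium, since the selenium content of the basal feed is not given in the sources used here.

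Glutathione S-transferases join the tripeptide glutathione to electrophiles, peroxidised lipids and many drugs, so that the conjugates can be exported and broken down. MeHg binds tightly to thiols, and its complex with glutathione is a main route by which cells get rid of it. The soluble enzymes form classes named alpha, mu, pi, sigma, theta, omega and zeta. A kappa class works in mitochondria, and an unrelated family of membrane proteins, the microsomal transferases, sits in the endoplasmic reticulum and the outer mitochondrial membrane. Several of these genes are classical targets of the transcription factor Nrf2, which binds antioxidant response elements, and in the brain mu class enzymes are best known from astrocytes.

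The promoters of the 3 members below are shown because the results turn on Gstm1 and Mgst1, and because Gstm5, the neighbour of Gstm1, carries the same motif as Mgst1 and was not called in any comparison. Each line gives the 250 bases before the annotated start, 5′ to 3′ on the strand of the gene, from the RefSeq promoter table of build GRCm38.p6, in which 9 of the 10 members were matched with 12 promoters. Gstm1 and Mgst1 have a second start each in that table, with promoters at chr3:108017974-108018223 and chr6:138141337-138141586 that held neither motif, so the start with a motif is shown. They lie at chr3:108017819-108018068 on the minus strand for Gstm1, chr6:138140277-138140526 on the plus strand for Mgst1 and chr3:107895604-107895853 on the plus strand for Gstm5. Capitals mark TATAAA in Gstm1 and the core of the antioxidant response element, TGACNNNGC, in Mgst1 and Gstm5.
Gstm1: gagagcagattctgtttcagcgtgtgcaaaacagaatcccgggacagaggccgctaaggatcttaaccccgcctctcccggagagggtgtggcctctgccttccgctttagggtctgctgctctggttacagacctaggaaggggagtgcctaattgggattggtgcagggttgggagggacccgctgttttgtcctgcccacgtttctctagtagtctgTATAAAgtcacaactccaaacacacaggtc
Mgst1: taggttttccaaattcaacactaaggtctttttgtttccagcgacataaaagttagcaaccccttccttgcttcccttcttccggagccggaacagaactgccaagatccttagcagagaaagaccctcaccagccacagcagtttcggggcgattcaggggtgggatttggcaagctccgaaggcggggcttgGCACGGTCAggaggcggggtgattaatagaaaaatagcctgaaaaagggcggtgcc
Gstm5: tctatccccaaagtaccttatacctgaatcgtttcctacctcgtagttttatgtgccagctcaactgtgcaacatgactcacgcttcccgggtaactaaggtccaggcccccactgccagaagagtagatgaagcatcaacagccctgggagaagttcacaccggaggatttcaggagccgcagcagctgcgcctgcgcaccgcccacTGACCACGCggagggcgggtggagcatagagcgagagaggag
Both motifs were searched on both strands from 250 bases before to 50 bases after each start. The core TGACNNNGC was found in 12.4% of 32851 promoters and, among the members, in Gstm5 and Mgst1. Variants of these letters were not searched. The Gstp1 promoter holds TGAGTCAGC, with TGAG in place of TGAC. In Gstm5 it read TGACCACGC from 42 to 34 bases before the start. In Mgst1 it read TGACCGTGC on the opposite strand, 56 to 48 bases before the start shown. TATAAA was found in 13.6% of promoters, and lay 30 to 25 bases before the start shown in Gstm1 and after the start in Gstm5. The letters TGACNNNGC did not occur in either window of Gstm1.

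On build NCBIM37, which the deposited table uses, the mu class genes lie together on chromosome 3. Gstm1 (ENSMUSG00000058135) spans chr3:107815173-107820891 on the minus strand and Gstm5 (ENSMUSG00000004032) chr3:107698739-107701604 on the plus strand, 114 kb apart. Gstp1 (ENSMUSG00000060803) at chr19:4035411-4037921 lies 2.37 kb from its copy Gstp2. Of the 679 stretches of 75 bases, the read length, in the Gstp1 transcripts, 425 (62.6%) also occur in Gstp2, so reads of these genes could be exchanged. Gstm1 shares 71 of 1467 such stretches (4.84%) with other transcripts, 70 of them with Gstm3, and Gstz1 shares 53 of 1582 (3.35%) with Pomt2, which overlaps it on the opposite strand. The other 7 members share none with another coding transcript. Gsta4 (ENSMUSG00000032348) lies at chr9:78039773-78057155, Gstt1 (ENSMUSG00000001663) at chr10:75246558-75261329, Gstz1 (ENSMUSG00000021033) at chr12:88488668-88505673 and Gsto1 (ENSMUSG00000025068) at chr19:47929460-47939280. Gstk1 (ENSMUSG00000029864) lies at chr6:42195934-42200440, Mgst1 (ENSMUSG00000008540) at chr6:138088837-138105276 and Mgst3 (ENSMUSG00000026688) at chr1:169302097-169323972. Gstm5 and Gsto1 are also overlapped on the opposite strand, by 4933431E20Rik and Wdr96. The kit keeps the strand, but whether the counting used it is not given in the sources used here.

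Per library, 5768208 to 11510521 reads fell on genes (median 9351470). Values are normalized counts, that is reads divided by the library's size factor, and levels of different genes are compared per kb of exon. All 10 members passed the filter on low counts in every fit, with between 20 reads (Gstk1) and 2739 reads (Gstm1) in a library. Markers of the hippocampus were present in every group, with summed levels of 6807 to 12698 normalized counts, and none of the 8 was called in HD or Se_HD against its control by limma. Of all genes 5.09% were called in HD and 2.06% in Se_HD. A Ctr library (13), an HD library (21) and a Se_Ctr library (28) stood apart from their groups. By the chi-square per gene between their reads, library 13 differed from the other Ctr libraries by 56.9 to 62.0, where those differed among themselves by 5.30 to 16.0. Library 21 differed from the other HD libraries by 24.5 to 40.2, against 5.45 to 22.4 among those, and library 28 from the other Se_Ctr libraries by 11.5 to 16.0, against 3.13 to 4.87 among those.

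Gstm1 was the most abundant member, with 1078 ± 173 normalized counts per kb (SD, n = 30 libraries), above 98.8% of all genes. Gstm5 followed with 622 ± 67.0, Gsta4 with 403 ± 41.5, Gstp1 with 350 ± 43.3 and Mgst3 with 324 ± 64.0. Gstz1 reached 133 ± 13.3, Gstk1 57.7 ± 11.4, Gsto1 50.7 ± 8.00, Mgst1 38.9 ± 11.4 and Gstt1 36.9 ± 9.52. Gstm1 lay above Gstm5 and Gstm5 above Gsta4 in 30 of 30 libraries, and so did Mgst3 above Gstz1 and Gstz1 above Gstk1. The order was less firm between Gsta4 and Gstp1 (27 of 30), Gsto1 and Mgst1 (25 of 30), Gstk1 and Gsto1 (21 of 30) and Gstp1 and Mgst3 (20 of 30). Mgst1 and Gstt1 could not be ordered, since Mgst1 was higher in 16 of 30 libraries. Gstm1 alone made up 32.3% ± 1.44 of the members' summed level per kb in Ctr mice (SD, n = 5). Of 16 other genes of the family in the table, Gstm7 had the highest level at 110 per kb, and Mgst2 and Gsta2 lay below 1.

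**Figure D1:**
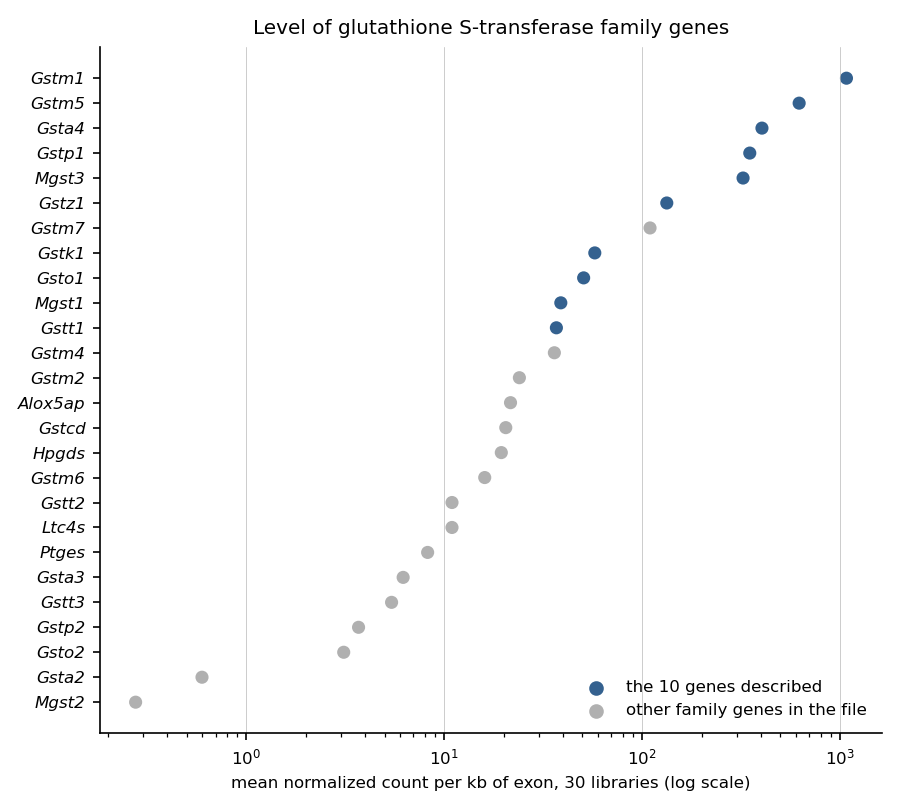
Mean normalized count per kb of exon over 30 libraries, on a log axis, for the 10 genes described (blue) and 16 other genes of the family in the table (grey). Gstm1 leads with 1078 and the 10 genes fall to 36.9 for Gstt1, with only Gstm7 (110) among the grey points lying between them.

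Of the 10 genes Gstm1 and Mgst1 rose with high dose MeHg in both feeds, and no member was called with the low dose. A gene was called in the feeds taken by themselves when limma's F test across its groups and its contrast were both at an unadjusted p under 0.05, a rule that follows the order of tests in the study. HD against Ctr called 2 of 10 members, both upward, where 5.09% of 20031 genes were called and 3.36% were called upward. Se_HD against Se_Ctr called the same 2 of 10, where 2.06% of 19679 genes were called and 1.28% upward. With the HD effect averaged over the feeds and fitted on all 30 libraries, 2 of 10 were called by the contrast alone, where 9.09% of 21383 genes were. After Benjamini-Hochberg adjustment over all genes, 1 member remained in HD against Ctr (0.13% of genes), none in Se_HD against Se_Ctr (0% of genes) and 2 in the averaged effect (0.21% of genes). The adjusted calls were not firm, as given with each gene. That of Gstm1 in the averaged effect held with any library left out, but was lost with astrocyte or microglia markers as a covariate. HD against LD and Se_HD against Se_LD called the same 2 genes, where 4.49% and 2.47% of genes were called, and 0 of 10 remained in either after adjustment (0.0499% and 0% of genes). The median log2 difference of the 10 members was 0.08 in HD, −0.02 in Se_HD and 0.06 in the averaged effect, against 0.01, −0.01 and 0.00 over all genes tested. For the low dose it was 0.08 in LD with 9 of 10 members above 0, 0.02 in Se_LD and 0.06 in the averaged low dose effect, where HD had 6 of 10 members above 0. HD and Se_HD share no libraries with each other's controls, but the averaged effect is made of both.

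**Figure D2:**
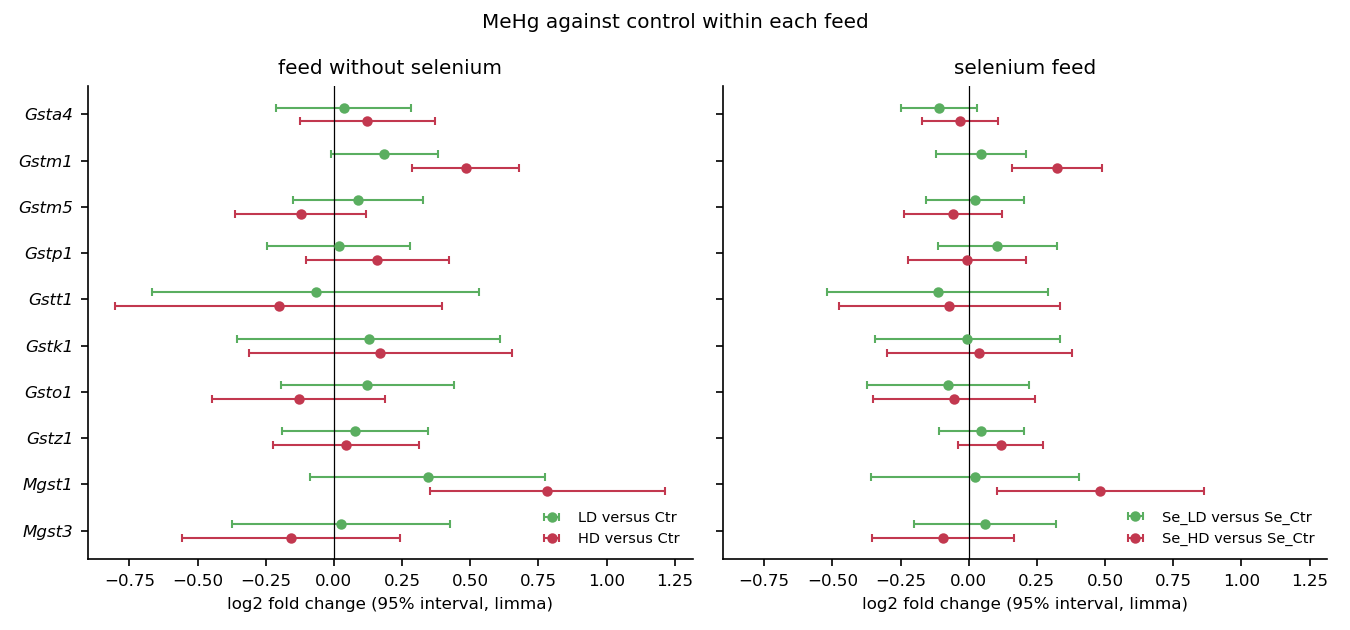
Log2 fold change of low dose (green) and high dose (red) MeHg against the control of the same feed, with 95% intervals from limma, for the 10 genes without (left) and with added selenium (right). The intervals of the high dose lie above 0 for Gstm1 and Mgst1 in both panels and cross 0 for the other 8 genes.

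Gstm1 encodes a soluble mu class transferase and was the member with the smallest p for high dose MeHg. In the Ctr mice it measured 1403, 1289, 1344, 1266 and 1263 normalized counts. In the LD mice the values were 1544, 1348, 1431, 1513 and 1638, and in the HD mice 1689, 2282, 1864, 1645 and 1757. All 5 HD values lay above every Ctr and every LD value, while 4 of 5 LD values lay above every Ctr value. Groups were separated in this way in 1.71% of all genes between HD and Ctr, and in 1.34% between HD and LD. The Se_Ctr mice had 1406, 1378, 1344, 1391 and 1124 normalized counts, the Se_LD mice 1382, 1425, 1299, 1268 and 1467, and the Se_HD mice 1735, 1823, 1375, 1632 and 1761. With selenium, 4 of 5 Se_HD values lay above every Se_Ctr value, and the remaining mouse (1375) lay within the control range.

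HD mice had 1847 ± 257 normalized counts of Gstm1 against 1313 ± 59.9 in Ctr mice (SD, n = 5), a 1.40-fold level. The log2 difference was 0.48 (SE 0.09, 95% interval 0.29 to 0.68), with an adjusted p of 0.0454 by limma, rank 21 of 20031 genes by p, and an exact permutation p of 0.00794, the smallest that 5 against 5 allows. It was 0.49 without Ctr library 13 and 0.52 without HD library 21. Over the planned and added alternatives its adjusted p ranged from 0.000417 to 1.00, it was under 0.05 in 7 of the 14, and the gene was called by the unadjusted rule in all 14. With 1 library left out the adjusted p was under 0.05 in 3 of 15 fits (without HD library 15, 21 or 27), and ranged from 0.0347 to 0.149. Se_HD mice had 1665 ± 176 against 1329 ± 117 in Se_Ctr mice, a log2 difference of 0.32 (SE 0.08, 95% interval 0.16 to 0.49). This difference ranked 9 of 19679 genes by p with an unadjusted limma p of 0.000538, but its adjusted p was 1.00, and the exact permutation p was 0.0317. It was 0.26 without Se_Ctr library 28, and still called. Averaged over the feeds, the high dose raised Gstm1 by a log2 difference of 0.40 (SE 0.06), a 1.32-fold level, with an adjusted limma p of 0.00078, rank 4 of 21383 genes, and an exact permutation p of 0.000126. This adjusted p stayed under 0.05 with any of the 30 libraries left out and in 10 of 12 alternatives, and was 0.104 with the astrocyte and 0.193 with the microglia covariate. HD also exceeded LD by 0.30 (limma adjusted p 0.37, exact permutation p 0.00794), and Se_HD exceeded Se_LD by 0.28 (limma adjusted p 0.82, exact permutation p 0.0317). With a glial covariate the difference between HD and LD was no longer called, at 0.22 with the astrocyte and 0.20 with the microglia markers.

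The low dose gave smaller differences of Gstm1. LD mice had 1495 ± 111 normalized counts, a log2 difference from Ctr of 0.18 (SE 0.09, 95% interval −0.01 to 0.38) that was not called by limma (unadjusted p 0.0637), although the exact permutation p was 0.0159. It passed the unadjusted threshold without LD library 8 (0.22), without HD library 9, with the choroid plexus covariate (0.21), and when all 30 libraries were fitted together. Se_LD differed from Se_Ctr by 0.04 (95% interval −0.12 to 0.21). Selenium alone did not shift Gstm1 detectably, with a log2 difference of 0.01 between Se_Ctr and Ctr (95% interval −0.16 to 0.19). The high dose effect was 0.16 smaller with selenium, but the interval of that difference ran from −0.41 to 0.09 and the interaction p was 0.197 by limma (unadjusted). The share of Gstm1 in the members' summed level per kb was 39.9% ± 3.68 in HD and 37.4% ± 2.25 in Se_HD, against 32.0% ± 1.18 in Se_Ctr (SD, n = 5).

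**Figure D3:**
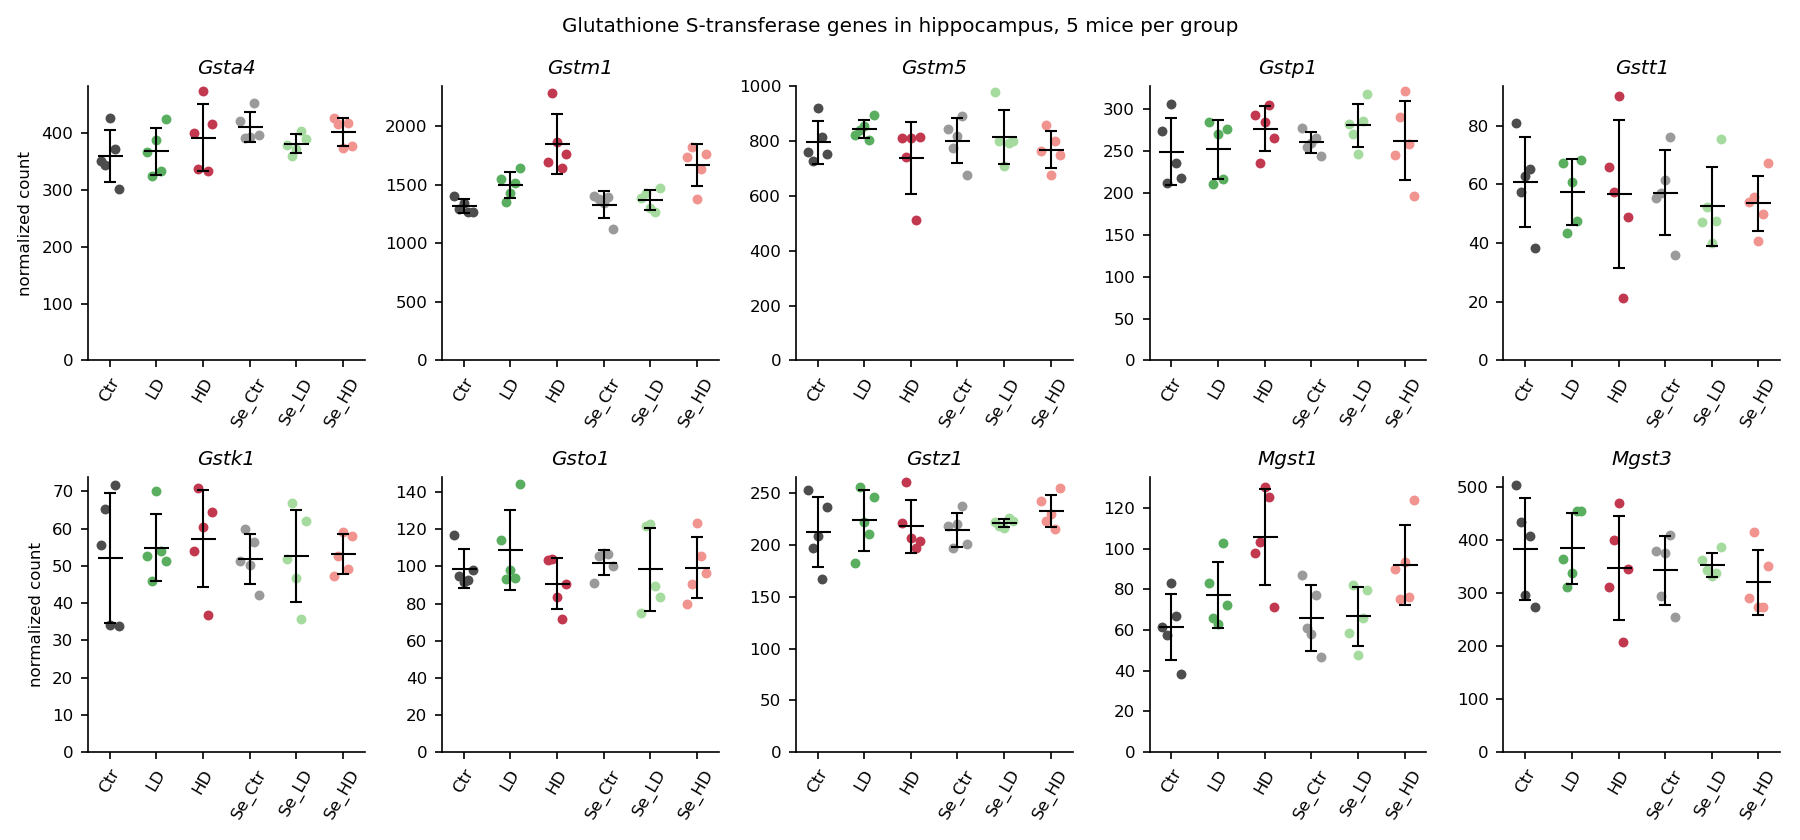
Normalized counts of the 10 genes in each of the 5 libraries per group (points), with the group mean and SD (lines), on axes that start at 0. The means of Gstm1 and Mgst1 are higher in HD and Se_HD than in their controls. Only for Gstm1 in HD do all values lie above the control, and elsewhere the values of MeHg mice and their controls overlap.

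Mgst1, a membrane-bound microsomal transferase with glutathione peroxidase activity, rose by a larger factor from a low level. The Ctr mice had 61.6, 57.5, 83.4, 67.1 and 38.3 normalized counts, the LD mice 83.0, 66.0, 62.8, 103 and 72.2, and the HD mice 98.1, 103, 130, 126 and 71.5. Of the HD values, 4 of 5 lay above every Ctr value. The Se_Ctr mice had 86.9, 60.8, 57.9, 77.4 and 46.6 normalized counts, the Se_LD mice 58.3, 82.1, 47.7, 65.9 and 79.8, and the Se_HD mice 89.8, 75.5, 93.5, 76.5 and 124. Here 3 of 5 Se_HD values lay above every Se_Ctr value. These values rest on 34 to 154 reads in a library, so that counting alone gives an error of 11.2% at the mean read number, against 21.0% to 26.5% between mice of a group.

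The log2 difference of Mgst1 was 0.78 between HD and Ctr (SE 0.21, 95% interval 0.35 to 1.22), a 1.72-fold level, with an unadjusted limma p of 0.00114, an adjusted p of 0.161 and an exact permutation p of 0.0159. It was 0.90 without Ctr library 13 and 0.71 without HD library 21, called in both. Between Se_HD and Se_Ctr it was 0.48 (SE 0.18, 95% interval 0.10 to 0.86), a 1.40-fold level, with an adjusted limma p of 1.00 and an exact permutation p of 0.0476. This call was lost without Se_Ctr library 28 (0.37), Se_HD library 30 (0.37) or Se_HD library 18 (0.47). Averaged over the feeds the difference was 0.63 (SE 0.14), a 1.55-fold level, ranking 43 of 21383 genes, with an adjusted limma p of 0.047 and an exact permutation p of 0.000787. The adjusted p was under 0.05 in 5 of 12 alternatives, with a range from 0.00621 to 0.419. It was under 0.05 in 8 of 30 fits with 1 library left out (Ctr 13, LD 8 or 20, HD 27, Se_Ctr 4, Se_LD 11, 17 or 29), with a range from 0.012 to 0.124. LD exceeded Ctr by 0.34 (95% interval −0.09 to 0.78), which was not called and passed the threshold only without Ctr library 13 (0.46). Se_LD and Se_Ctr differed by 0.02. HD exceeded LD by 0.44 (unadjusted limma p 0.0467, exact permutation p 0.0714), a call lost when any of 11 libraries was left out, with values of 0.36 to 0.47. Se_HD exceeded Se_LD by 0.46 (unadjusted limma p 0.0206, exact permutation p 0.0476), a call lost without Se_LD library 17 (0.35), Se_HD library 18 (0.45) or Se_HD library 30 (0.35). The high dose effect was 0.30 smaller with selenium, with an interval from −0.88 to 0.28 and an unadjusted limma interaction p of 0.30.

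Markers of glia rose in HD as well. In bulk tissue, more cells of a type and more RNA per cell cannot be told apart. Of 10 microglia markers 9 were called upward in HD against Ctr, where 5.09% of all genes were called and 3.36% upward. The summed level of the 10 was 3303 to 7043 normalized counts in HD against 2607 to 2869 in Ctr. Of 10 astrocyte markers Aldh1l1, Aqp4 and Sox9 rose in HD, with sums of 58501 to 66506 against 50202 to 60036, and all 8 reactive astrocyte markers, among them Gfap, were called upward. The sums of the reactive list were 5506 to 14365 in 4 HD libraries and 43753 in library 21, against 2567 to 3086 in Ctr. In Se_HD against Se_Ctr, where 2.06% of all genes were called, limma called 0 of 10 microglia markers (0 at an unadjusted p under 0.05). It called 0 of 10 astrocyte markers (1 at an unadjusted p under 0.05, Gjb6), and the sums overlapped. Se_HD had microglia sums of 2744 to 3171 against 2537 to 3183 in Se_Ctr, and astrocyte sums of 50633 to 53441 against 49166 to 55433. Of the 7 reactive astrocyte markers tested there Gfap and Osmr rose, with sums over all 8 of 3471 to 4326 in Se_HD against 2690 to 3706 in Se_Ctr, and of 8 fibroblast and mural markers Col1a1, Col1a2 and Lum rose. No marker of these lists was at 0 throughout a group.

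With the mean of the astrocyte markers as a covariate, chosen after seeing the data, Gstm1 in HD against Ctr kept a log2 difference of 0.40 (unadjusted limma p 0.014), and with the microglia markers 0.38 (p 0.0195). Mgst1 was no longer called in HD against Ctr with either covariate, at 0.43 (unadjusted limma p 0.185) and 0.60 (p 0.0873). In Se_HD against Se_Ctr the same covariates left Gstm1 at 0.31 and 0.32 and Mgst1 at 0.49 and 0.59, all called. Since the markers themselves rose in HD, the part of glia in these differences was not tested beyond these fits. Choroid plexus markers varied widely between mice of a group, with sums of 833 to 31539 in Ctr, 7076 to 29652 in HD, 6309 to 21380 in Se_Ctr and 9463 to 35222 in Se_HD. With their mean as a covariate Gstm1 stayed called in both feeds (0.54 and 0.32), while Mgst1 stayed called in HD (0.73) and was no longer called in Se_HD (0.45). Of 5 ependymal markers 4 rose in HD.

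**Figure D4:**
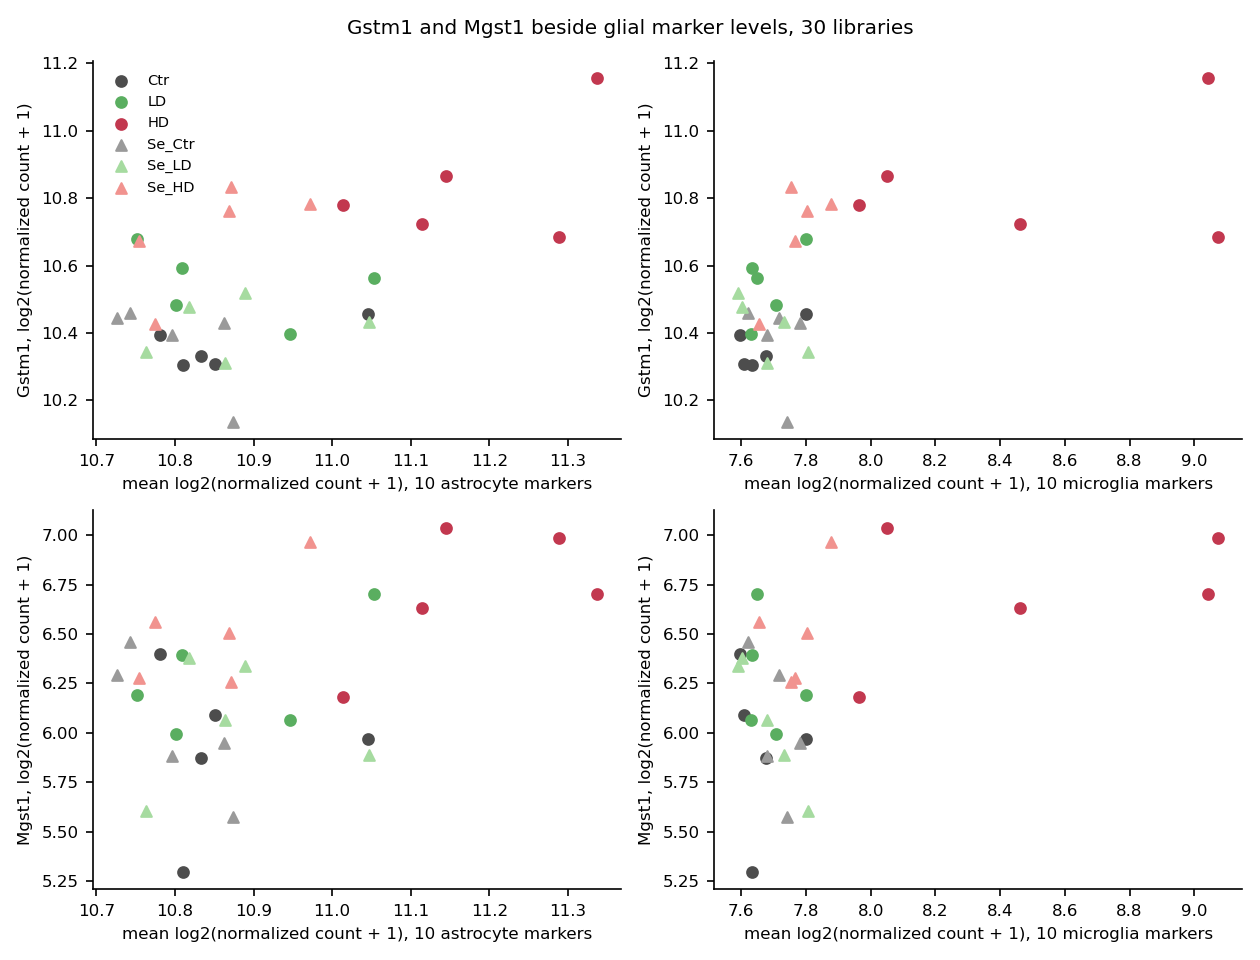
Gstm1 (top) and Mgst1 (bottom) against the mean of 10 astrocyte (left) and 10 microglia markers (right), each as log2(normalized count + 1), in 30 libraries. Circles are mice without and triangles mice with added selenium. HD libraries (red) lie to the right of the others for microglia markers, while the Se_HD libraries (pink), with Gstm1 above every Se_Ctr library in 4 of 5, have microglia marker means below every HD library.

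Gstm5, another mu class enzyme near Gstm1 on the chromosome, did not follow it. It had 796 ± 77.8 normalized counts in Ctr, 844 ± 33.9 in LD and 739 ± 130 in HD, and 802 ± 81.0, 817 ± 98.0 and 770 ± 66.4 in Se_Ctr, Se_LD and Se_HD (SD, n = 5). The log2 difference was −0.12 between HD and Ctr (95% interval −0.36 to 0.12) and −0.06 between Se_HD and Se_Ctr (−0.24 to 0.12). The HD mean was lowered by library 21 at 513 normalized counts, where the other 4 HD mice had 744 to 816, and the difference from Ctr was 0.00 without it. The upper bounds of both intervals lay below the Gstm1 differences in the same comparisons.

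Gstp1, the pi class enzyme, had group means between 249 and 281 normalized counts. HD mice had 277 ± 26.8 against 249 ± 40.0 in Ctr (SD, n = 5), a log2 difference of 0.16 (95% interval −0.10 to 0.42, unadjusted limma p 0.22), and Se_HD and Se_Ctr differed by −0.01 (−0.22 to 0.21). Its copy Gstp2 had a mean of 2.77 normalized counts. How reads that fit both copies were counted is not given in the sources used here, so the values of both are uncertain.

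Gsta4, the alpha class enzyme that conjugates 4-hydroxynonenal from peroxidised lipids, was the only member called for selenium. The Ctr mice had 351, 344, 427, 373 and 302 normalized counts and the Se_Ctr mice 421, 392, 394, 454 and 397. The groups overlapped, with 1 Se_Ctr value above every Ctr value. Se_Ctr exceeded Ctr by a log2 difference of 0.20 (SE 0.09, 95% interval 0.01 to 0.39, unadjusted limma p 0.0407, adjusted p 1.00), and the exact permutation p was 0.0635. In that comparison 1 of 10 members was called, where 4% of 21383 genes were. The call was lost without any of 5 libraries (Ctr 1, 7 or 25, Se_Ctr 4 or 22), with values of 0.14 to 0.20. Averaged over the 3 mercury levels selenium gave 0.10 (95% interval −0.01 to 0.21), and 0 of 10 members were called (6.62% of genes), at an unadjusted limma p as well. High dose MeHg changed Gsta4 by 0.12 without selenium (95% interval −0.12 to 0.37) and by −0.03 with it (−0.17 to 0.11). Without selenium it was 0.42 with either the astrocyte (unadjusted limma p 0.0201) or the microglia covariate (p 0.027), and was not called. The averaged selenium difference was 0.01 with the astrocyte and 0.03 with the microglia covariate. Within groups Gsta4 was lower where both lists were higher (r = −0.51 for each over 30 libraries).

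Gstt1, Gsto1 and Gstz1, the theta, omega and zeta class members, did not pass the test in any comparison. Gstt1 had 61.0 ± 15.4 normalized counts in Ctr and 56.7 ± 25.1 in HD, where its values ran from 21.2 in library 21 to 90.1 in library 15. Gsto1, whose enzyme reduces dehydroascorbate and methylated arsenic, had 98.9 ± 10.5 in Ctr and 90.8 ± 13.8 in HD, a log2 difference of −0.13 (95% interval −0.45 to 0.19) that was −0.05 without HD library 21. Gstz1, which acts in tyrosine breakdown, had group means from 213 to 233, and its spread between mice of a group ran from 1.84% in Se_LD to 15.9% in Ctr. The intervals of Gstt1 were the widest of the 10, from −0.80 to 0.40 in HD against Ctr, wide enough to hold a fall as large as the rise of Mgst1.

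Gstk1 in mitochondria and Mgst3 in membranes were likewise not called. Gstk1 had 52.1 ± 17.6 normalized counts in Ctr and 57.3 ± 13.0 in HD, a log2 difference of 0.17 (95% interval −0.31 to 0.65) that was 0.04 without Ctr library 13 and 0.32 without HD library 21, and called in neither. Mgst3, of the same membrane family as Mgst1, had 383 ± 96.5 in Ctr and 347 ± 97.9 in HD, a log2 difference of −0.16 (−0.56 to 0.24), with 208 in library 21. Without that library the differences of Mgst3 and Gstt1 turned to 0.01 and 0.11, neither called. Across the 8 members not called, differences between HD and Ctr ran from −0.20 to 0.17 with 4 above 0, and those between Se_HD and Se_Ctr from −0.09 to 0.12 with 2 above 0. Their intervals reached from −0.80 to 0.65 in HD and from −0.48 to 0.38 in Se_HD.

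Low dose MeHg called 0 of 10 members in LD against Ctr (1.46% of genes were called) and 0 of 10 in Se_LD against Se_Ctr (1.46% of genes), with 0 at an unadjusted p under 0.05 by limma and 0 by edgeR and DESeq2. The low dose effect averaged over the feeds called 0 of 10 as well (2.69% of genes). The differences lay between −0.07 and 0.34 without and between −0.11 and 0.10 with selenium. Between feeds at the same mercury level, 0 of 10 members were called in Se_LD against LD (2.86% of genes) and 0 of 10 in Se_HD against HD (8.38% of genes) by limma, edgeR and DESeq2. The high dose effect did not differ detectably between the feeds for any of the 10 (4.77% of genes were called), nor did the low dose effect (3.75%), at unadjusted p-values by all 3 tools. With a glial covariate the high dose effect on Gsta4 was called smaller with selenium, by −0.34 with the astrocyte markers (unadjusted limma p 0.0238) and −0.41 with the microglia markers (p 0.0128).

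The other genes of the family and of the glutathione pathway were looked at in 4 lists, none of which held a member adjusted below 0.05 in the comparisons described. Of the 16 other family genes Hpgds, the prostaglandin D synthase of the sigma class, and Gstp2 rose in HD against Ctr, with log2 differences of 0.86 and 1.55, where 5.09% of all genes were called. The median of the 16 was 0.18, against 0.01 over all genes, and Gstp2 had only 3.92 ± 1.31 normalized counts in HD against 0.771 ± 0.754 in Ctr (SD, n = 5). Gstp2 was also called upward in Se_Ctr against Ctr and in Se_LD against LD, with 2.59 ± 1.94 in Se_Ctr, 1.92 ± 2.14 in LD and 3.66 ± 0.651 in Se_LD, and Gstm6 was called upward in Se_Ctr against Ctr. In these comparisons 4% (Se_Ctr against Ctr) and 2.86% (Se_LD against LD) of all genes were called. Ltc4s, the leukotriene C4 synthase, and Mgst2 were at an unadjusted contrast p under 0.05 in HD against Ctr without being called, with 13.3 ± 5.13 against 6.00 ± 7.57 and 0.645 ± 1.05 against 2.26 ± 1.70 normalized counts. With the feeds averaged Gstp2, Hpgds and Ltc4s were called upward, 3 of 16, where 9.09% of all genes were called. Gsto2 and Gstm6 were called downward in the difference of the low dose effect between feeds (3.75% of genes). Hpgds had 113 ± 53.0 against 57.4 ± 8.16. In Se_HD against Se_Ctr 0 of 15 tested were called by limma, where 2.06% of all genes were called. Of the 15, 1 (Ptges) was at an unadjusted contrast p under 0.05, and their median was 0.11. Gstm7, the most abundant of the 16, gave −0.17 in HD (SE 0.15) and −0.05 in Se_HD (SE 0.15), and did not pass the test.

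Among 13 genes of glutathione synthesis and recycling, Me1, a source of NADPH, rose in HD (0.32) and Slc7a11, the cystine importer, rose in Se_HD (0.42), 1 of 13 in each, where 5.09% and 2.06% of all genes were called. Slc7a11 measured 0.33 in HD, with an unadjusted limma p of 0.091, and its averaged effect was 0.37. Gclc and Gclm, the subunits of the enzyme that limits glutathione synthesis, gave 0.06 and 0.02 in HD and 0.10 and 0.02 in Se_HD, none of which passed the test. With the feeds averaged 4 rose (Me1, Pgd, Slc3a2 and Slc7a11) and Gss, glutathione synthetase, fell by 0.21, where 9.09% of all genes were called. The median of the 13 was 0.14 in HD and 0.02 in Se_HD.

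Among 13 genes of conjugate export and breakdown Abcc3, an exporter of conjugates, and Ggt5, a glutamyl transferase, rose in HD by 0.83 and 0.69 (5.09% of all genes were called), while Anpep, an aminopeptidase, rose in Se_HD by 0.84 (2.06% of all genes). Abcc4 joined Abcc3 and Ggt5 in the averaged effect. Of 14 other Nrf2 targets Hmox1, Prdx1 and Prdx6 rose in HD, by 1.29, 0.36 and 0.57, where 5.09% of all genes were called, and the median of the 14 was 0.23. Ephx1 and Taldo1 were at an unadjusted contrast p under 0.05 in HD against Ctr without being called. With the feeds averaged 5 of 14 rose, Ephx1 and Osgin1 besides these, where 9.09% of all genes were called, with a median of 0.11. In Se_HD limma called 0 of 14, where 2.06% of all genes were called, with 1 (Ephx1) at an unadjusted contrast p under 0.05. The median of the 14 was 0.07 there, with Hmox1 at 0.23. Hmox1, which breaks down haem, had 108 ± 70.1 normalized counts in HD, 39.0 ± 8.37 in Ctr, 53.9 ± 9.92 in Se_HD and 45.2 ± 3.48 in Se_Ctr (SD, n = 5). For Hmox1, Prdx6, Srxn1 and Taldo1 the high dose effect was called smaller with selenium at an unadjusted limma p, where 4.77% of all genes were called. The same contrast gave −0.16 for Gstm1 and −0.30 for Mgst1 and did not pass the threshold for either. In LD against Ctr limma called 0 genes of these 4 lists, where 1.46% of all genes were called, and 1 (Anpep) had an unadjusted contrast p under 0.05.

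**Figure D5:**
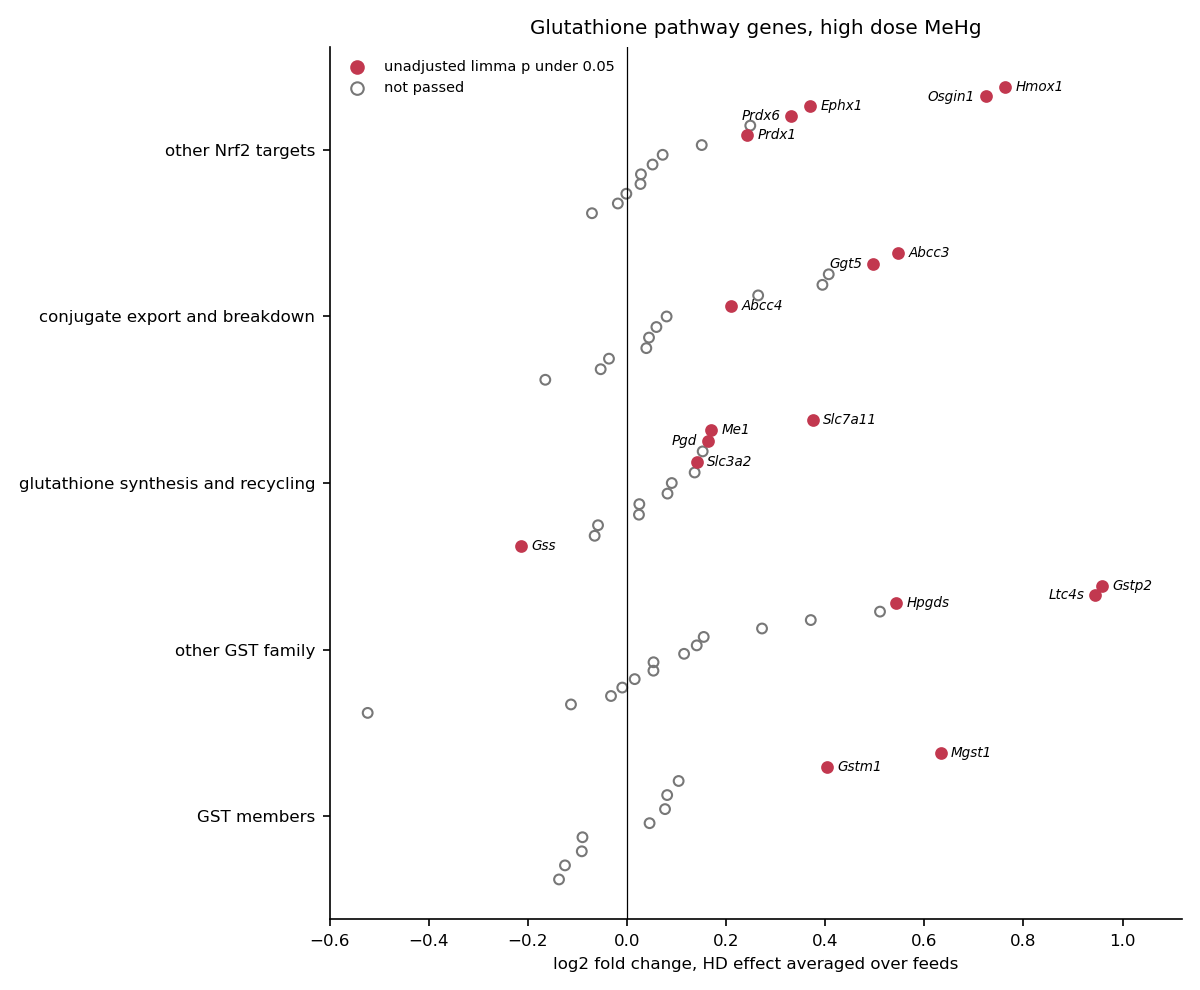
Log2 fold change of high dose MeHg averaged over both feeds for the 10 members and 4 lists of related genes, with genes at an unadjusted limma p under 0.05 filled and named. Gstm1 (0.40) and Mgst1 (0.63) stand apart from the other 8 members, and Hmox1 (0.76) and Slc7a11 (0.37) lead their lists.

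The members also varied from mouse to mouse within groups. Over the 30 libraries, after subtracting each group's mean from the log2 values, Gstt1 and Mgst3 varied together (r = 0.76), as did Gstm5 and Gstt1 (r = 0.67), Gstm1 and Mgst3 (r = 0.63) and Gsta4 and Gstm5 (r = 0.62), while Gstm1 and Mgst1 were only loosely related (r = 0.32). Gstm5 was lower where reactive astrocyte markers were higher (r = −0.77, and −0.49 without HD library 21). Without that library r was 0.65 for Gstt1 and Mgst3, 0.42 for Gstm5 and Gstt1, 0.60 for Gstm1 and Mgst3 and 0.55 for Gsta4 and Gstm5. These are descriptions over libraries that share their size factor and tissue piece, and no test was made. Among 11097 genes averaging 50 or more normalized counts, the closest to Gstm1 were Mgat5b (r = 0.78), Adcy6 (0.78) and the astrocyte marker Aldoc (0.76). With the mean of the astrocyte markers, which include Aldoc, Gstm1 was only loosely related (r = 0.21). With the reactive astrocyte markers its r was −0.11, and 0.29 without HD library 21. The closest to Mgst1 were Dus2l (0.80), Vrk3 (0.79) and Lsm6 (0.77). Ldhb, a lactate dehydrogenase subunit, was the closest gene to Gstk1 (0.76) and Mgst3 (0.86) and the next to closest to Gstt1 (0.88). Gsta4 was closest to Pja1 (0.81), Gstm5 to Ralyl (0.78, and 0.67 without HD library 21), Gstp1 to Glrx (0.72), Gsto1 to Pex16 (0.86) and Gstz1 to 2610524H06Rik (0.71).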

How the data were processed

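The deposited values are a signal, the authors' read counts per gene divided by a DESeq2 size factor per library. Hippocampal RNA was sequenced as single reads of 75 bases from TruSeq stranded libraries, trimmed with Trim Galore 0.4.2, mapped with HISAT2 to NCBIM37, counted with featureCounts and stripped of genes with a row sum under 10. Every value was a whole number of reads within 0.01, so reads were recovered. Groups came from the treatment labels, and nothing in them names separate litters. By the study's methods each mouse was kept in a cage of its own. The limma p-values weigh a difference against the spread between libraries within groups, pooled over the groups of a fit and moderated across genes. The most alike pair of libraries in a group differed by a chi-square of 3.13 per gene, where sampling noise gives 1, so no library was counted as a repeat. The least alike pair, Ctr libraries 13 and 19, differed by 62.0.

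limma 3.58.1 (R 4.3.3) was run on log2(normalized count + 1) with a variance trend and a coefficient per group, over Ctr, LD and HD, over the selenium groups, and over all 30 libraries for comparisons that cross feeds. Genes needed a sum of at least 10. P-values were adjusted by the Benjamini-Hochberg procedure across every gene of a fit. Exact permutation tests were two-sided, and the selenium effect used 100000 resamples. As alternatives, the pseudocount was set to 0.1 or 10, and genes were required to average 10 or went unfiltered. Others were quantile normalization, recomputed size factors, no trend, edgeR 4.0.16 and DESeq2 1.42.0 on recovered reads, sets of 6 consecutive library numbers as a covariate, all 30 libraries in 1 fit, and each library left out. The glial and choroid plexus covariates, and correlations without libraries 13 and 21, were chosen after seeing the data. The fits were tested on simulated data.

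The members and the gene lists were chosen with earlier results of these data known. All 10 members are named, and other genes are named from those called in the comparisons described, those most abundant in a list and those with the profile closest to a member's. Gclc, Gclm and genes at an unadjusted p only were named after their values were seen. Promoters come from RefSeq (GRCm38.p6), and their coordinates are not those of NCBIM37.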

Additional observations from a re-analysis of the deposited data

Results flagged for a closer look

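In 3 of 60 groups of 5 mice (10 genes in 6 groups) a single library stood apart from the other 4 by Dixon's ratio of the gap to the range, for which the 95% critical value is 0.71. Chance gives about 1 in 20 groups, or 3 of 60. Gstm1 in Se_Ctr library 28 was low at 1124 normalized counts (ratio 0.782), and without that library the log2 difference between Se_HD and Se_Ctr was 0.26. Gstm5 in HD library 21 was low at 513 normalized counts (ratio 0.764). Gsto1 in Ctr library 1 was high at 117 normalized counts (ratio 0.756). The cause of these values was not tested.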

How the results depend on the processing

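Of 5100 values of single members under alternatives, 5049 kept their direction or stayed uncalled, 35 lost and 16 gained the call, and 0 reversed. Signs differed in 206 values, called under neither setting. Mgst1 and Gstm1 stayed called by the unadjusted rule in the averaged high dose effect under every alternative run, but at an adjusted p under 0.05 in 10 (Gstm1) and 5 (Mgst1) of 12 alternatives, and in 30 and 8 of 30 fits with a library left out. For Gstm1 in HD against Ctr the adjusted p stayed under 0.05 in 7 of 14 alternatives and in 3 of 15 fits with a library left out. Of the 2 members called in HD against Ctr, 1 remained with the astrocyte or the microglia covariate and at an adjusted p under 0.05, and 2 by the unadjusted rule with any library left out. In HD against LD 1 remained with quantile normalization, without the trend and with the choroid plexus covariate, 0 with either glial covariate and after adjustment, and 1 to 2 with a library left out. In Se_HD against Se_Ctr and in Se_HD against Se_LD 1 remained with the choroid plexus covariate, 0 after adjustment, and 1 to 2 with a library left out. In Se_Ctr against Ctr 0 remained without the trend, with the astrocyte covariate and after adjustment, and 0 to 1 with a library left out. In LD against Ctr 1 was called with the choroid plexus covariate and with all 30 libraries in 1 fit, and 0 to 1 with a library left out. The difference of the high dose effect between feeds called 1 member, Gsta4, with the astrocyte (−0.34) or microglia covariate (−0.41). With a library left out, 0 to 1 were called in Se_HD against HD (Gstm1 without HD library 21), in the averaged low dose effect (Gstm1 without LD library 8, HD library 9 or Se_LD library 23) and in the averaged selenium effect (Gsta4 without Ctr library 13, LD library 26 or HD library 15). The cause of these shifts was not tested. Gsta4 also passed in the averaged high dose effect with the astrocyte (0.17) or microglia covariate (0.20). Counting error limits Gstt1, Gstk1 and Mgst1, at 13.2%, 13.4% and 11.2% of their mean. The library numbers run in sets of 6 with 1 library of each group, which the labels do not describe as a batch or litter. With the set as a block, the count of members called by the unadjusted rule was the same in all 14 comparisons, while the adjusted p became 0.0993 for Gstm1 in HD against Ctr and 0.0657 for Mgst1 in the averaged high dose effect.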
